A study of Mus musculus with 8 samples.

Results

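Hub bins were 5 kb stretches of the mouse genome that took part, at either end, in 12 or more H3K27ac HiChIP loops in each of 4 deposited loop lists. Of 75822 bins with a loop in any list, 33389 had a loop in all 4 lists and 924 were hubs. Hub bins that touched were joined into 619 regions, of which 443 held 1 bin and 176 held 2 or more. The hubs were selected on their loop counts, so those counts are given as a description and carry no test.

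HPC-7 is a mouse hematopoietic progenitor line with very little endogenous CEBPA. The cells had been transduced with a retrovirus that carries either isoform of this transcription factor, the full-length p42 or the truncated p30, fused to ERT2 and followed by an IRES-GFP cassette. Cells with either isoform were left untreated (UT) or given 100 ng/mL LPS for 2 h, which makes 4 groups. Where 4 values stand together they belong to the untreated and the LPS-treated p30 cells and then to the untreated and the LPS-treated p42 cells. The ERT2 part holds a protein in the cytoplasm until 4-hydroxytamoxifen is given, and the study's general culture methods state that ERT2 lines received it the day before an experiment, while the HiChIP labels do not mention it. All groups share the line, the vector and the ERT2 fusion, and no empty-vector library was analyzed here. There were 2 libraries per group and 1 loop list per group, so no spread between replicates could be measured, and every comparison is between 4 lists and not between conditions. In such bulk libraries a contact made in more cells and a contact made more often per cell cannot be told apart.

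The p30 lists held 80489 loops untreated and 94609 with LPS, and the p42 lists 158233 and 78591. The numbers of modelled contacts were 17976716, 14503330, 18999991 and 15831583, so that the longest list had the most contacts while the list with the fewest contacts was the second longest. The part of depth in the list sizes was not tested. Lists of equal size, with the 78591 loops of smallest q-value in each, are therefore given beside the lists as deposited. The largest q-value kept was 0.00897, 0.00379, 6.98e-05 and 0.01, so the p42 UT list was cut most strictly. The labelled cell type was checked on loops at start sites. All 9 progenitor markers (Kit, Cd34, Gata2, Tal1, Lmo2, Runx1, Ptprc, Spn and Myb) had a loop in all 4 lists, with 59, 83, 139 and 78 loops in sum. Of 11 markers of lymphoid, hepatic, neural, muscle, epithelial and stromal cells, 0 had a loop in all 4 lists and 3 had a loop in any, with 4, 2, 4 and 0 loops in sum. In the longer lists of genes used further on, 24 of 35 progenitor receptors and surface proteins, 35 of 54 blood transcription factors and 3 of 29 genes of other lineages were looped in all 4 lists, and 11 of these 29 in any.

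HiChIP ligates DNA ends that are neighbors in the folded chromosome and enriches for those with a chosen mark. H3K27ac, acetylated lysine of histone H3, marks active promoters and enhancers, so a loop in these lists joins a stretch with an active mark to another stretch. Some sites make many more such contacts than others. In blood cells they are often groups of enhancers around genes that set cell identity or that answer quickly to a signal. LPS is sensed by TLR4 and drives NF-kB and AP-1, while CEBPA and its relative CEBPB steer progenitors toward granulocytes and monocytes.

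Hub sequences are shown for 4 start sites and 4 intergenic bins because the loop counts of these bins are among the highest or carry the comparisons below. The start sites run from 200 bases before the start to 50 bases from it, on the strand of the gene. Each intergenic stretch is the 200 bases of its bin with matches to the most different motifs. Capitals mark matches, on either strand, to any of 10 motifs searched: TTGCNNCAA (CEBP), TGATGCAA (CEBP-ATF), TGANTCA (AP-1), TGACGTCA (CRE), TGTGGTTT (RUNX), AGATAAGA (GATA), GAGGAAGT (PU.1), CCGGAAGT (ETS), GGGANTTTC (NF-kB) and AGGGGGCGC (CTCF). All coordinates are in mm39 (GRCm39).
Dusp1 start, chr17:26727444-26727693, minus strand: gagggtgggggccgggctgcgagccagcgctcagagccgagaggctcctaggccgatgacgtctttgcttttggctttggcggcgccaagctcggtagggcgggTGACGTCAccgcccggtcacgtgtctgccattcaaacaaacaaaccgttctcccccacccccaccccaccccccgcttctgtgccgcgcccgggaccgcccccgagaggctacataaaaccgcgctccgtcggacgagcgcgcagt
Irf2bp2 start, chr8:127320704-127320953, minus strand: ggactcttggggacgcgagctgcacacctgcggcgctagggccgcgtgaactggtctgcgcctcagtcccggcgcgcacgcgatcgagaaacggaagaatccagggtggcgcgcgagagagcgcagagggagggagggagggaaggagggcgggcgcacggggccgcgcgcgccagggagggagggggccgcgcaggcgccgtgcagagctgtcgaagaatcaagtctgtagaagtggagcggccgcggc
Zfp36l2 start, chr17:84495333-84495582, minus strand: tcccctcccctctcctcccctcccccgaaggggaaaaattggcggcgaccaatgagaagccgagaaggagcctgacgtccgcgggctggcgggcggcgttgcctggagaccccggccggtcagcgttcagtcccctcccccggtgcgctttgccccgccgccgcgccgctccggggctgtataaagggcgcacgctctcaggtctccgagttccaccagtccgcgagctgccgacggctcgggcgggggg
Cebpb start, chr2:167530635-167530884, plus strand: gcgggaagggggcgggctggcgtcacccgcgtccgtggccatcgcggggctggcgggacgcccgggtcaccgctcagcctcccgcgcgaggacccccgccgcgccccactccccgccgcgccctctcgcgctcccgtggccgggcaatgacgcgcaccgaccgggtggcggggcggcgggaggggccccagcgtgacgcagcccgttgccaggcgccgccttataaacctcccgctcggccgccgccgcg
Intergenic hub nearest Tomm20, chr8:127576341-127576540, plus strand: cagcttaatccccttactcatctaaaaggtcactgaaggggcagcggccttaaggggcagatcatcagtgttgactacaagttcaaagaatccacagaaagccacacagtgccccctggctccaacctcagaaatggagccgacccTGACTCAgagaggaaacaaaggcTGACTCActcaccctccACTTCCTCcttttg
Intergenic hub nearest Zfp36l2, chr17:84427051-84427250, plus strand: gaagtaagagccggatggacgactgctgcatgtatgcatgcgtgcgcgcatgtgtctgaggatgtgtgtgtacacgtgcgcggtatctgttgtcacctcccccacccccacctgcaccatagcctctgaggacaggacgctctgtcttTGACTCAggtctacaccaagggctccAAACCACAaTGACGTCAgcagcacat
Intergenic hub nearest Ifnar2, chr16:91151651-91151850, plus strand: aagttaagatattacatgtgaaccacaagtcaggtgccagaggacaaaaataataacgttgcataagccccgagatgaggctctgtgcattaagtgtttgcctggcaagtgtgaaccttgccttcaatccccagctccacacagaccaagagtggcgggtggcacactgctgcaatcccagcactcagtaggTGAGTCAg
Intergenic hub nearest Xcr1, chr9:123725331-123725530, plus strand: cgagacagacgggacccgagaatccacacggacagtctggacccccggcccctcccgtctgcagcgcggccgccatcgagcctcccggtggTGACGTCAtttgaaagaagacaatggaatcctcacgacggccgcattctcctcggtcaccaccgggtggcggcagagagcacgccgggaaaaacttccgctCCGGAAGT

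The Dusp1 start held 1 match to the CRE motif, while the Irf2bp2, Zfp36l2 and Cebpb windows held 0 matches to any of the 10 motifs. The stretch near Tomm20 held 2 AP-1 matches and 1 PU.1 match. The stretch near Zfp36l2 held AP-1, RUNX and CRE matches, that near Ifnar2 held AP-1 and that near Xcr1 held CRE and ETS. A match describes the letters and not a bound site. The CRE letters occurred in 2.52% of 318 protein-coding start windows in hubs, in 3.03% of 6339 start windows in bins looped in all 4 lists and in 2.34% of all 21769.

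Over whole 5 kb bins, AP-1 and CEBP letters were about as frequent in hubs as in other H3K27ac peak bins, while CTCF letters, and outside promoters ETS letters, were more frequent. AP-1 letters were found in 77.6% of hubs, in 76.2% of 1895 bins whose lowest list held 8 to 11 loops and in 77.2% of peak bins looped in all 4 lists. The CEBP letters stood in 33.1%, 33.5% and 33.3% of these sets. Hubs and peak bins lay furthest apart in relative terms for CTCF (7.03% against 3.18%) and ETS (11.1% against 6.84%), while GATA letters were rarer in hubs (15% against 18.8%). Bins of 8 to 11 loops lay between the other sets for these motifs, with 6.02% for CTCF, 9.29% for ETS and 16.4% for GATA, so the difference is not particular to hubs. Promoter bins, of which hubs hold more, carry ETS and CTCF letters more often. Among promoter bins ETS letters stood in 16.5% of hubs and 16.5% of peak bins and CTCF letters in 12.2% and 7.70%, and among the other bins ETS letters stood in 8.82% and 4.79% and CTCF letters in 4.80% and 2.22%. In the start windows ETS letters were found in 4.09% of those in hubs and 7.04% of those in bins looped in all 4 lists. Median GC content moved with this order, at 49.6% in hubs, 48.6% in bins of 8 to 11 loops and 46.6% in peak bins, and its part in the motif shares was not tested. The CEBP letters and the reverse complement of the CEBP-ATF letters can overlap.

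The median hub held 16, 18, 23 and 16 loops, so that p42 UT was above the other lists. The highest counts in single bins were 43, 54, 68 and 47. Hubs made up 1.41% to 1.93% of the looped bins of a list, and 16.6%, 16.6%, 12.7% and 17.1% of the loops in the 4 lists had at least 1 end in a hub. The choice of threshold met no gap in the data. For 238 hubs the lowest list held exactly 12 loops, with medians of 12.5, 15, 20 and 12 loops, and for 264 bins just outside it held 11, with medians of 12, 14, 18 and 11. A start site lay in 30.7% of the former and in 31.1% of the latter. At a minimum of 20 loops 113 bins were left, and at a minimum of 30 loops 10.

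**Figure D1:**
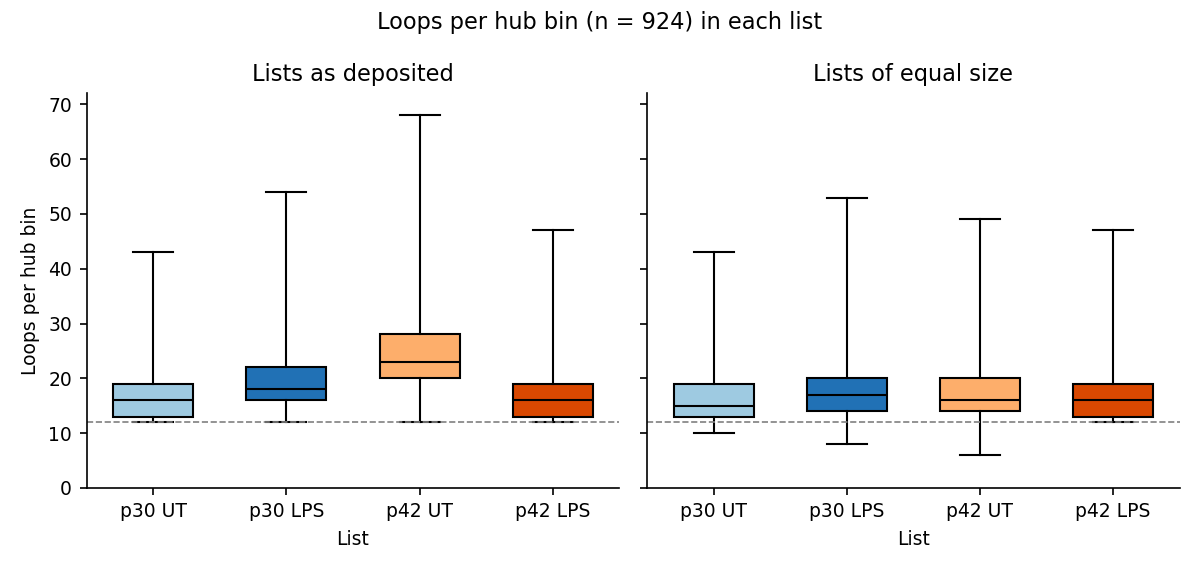
Loops per 5 kb hub bin (y axis) in each list (x axis) over 924 hub bins, as deposited (left) and in lists of equal size (right); boxes show median and quartiles, whiskers the lowest and highest bin, and the dashed line the minimum of 12. As deposited the p42 UT list has the highest median, 23, beside 16, 18 and 16 in the other lists, and at equal size the boxes of all 4 lists overlap.

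Loops of a hub tended to reach neighboring partner bins, which weighs on what a count of 12 means. Partner bins that touched were joined into stretches, and a hub then had a median of 6 separate stretches in a list and at most 15, 19, 21 and 17. Bins whose lowest list held 8 to 11 loops had a median of 5 in each list. The median number of partner bins per stretch was 2.67, 3, 3.6 and 2.82 in hubs and 2.25, 2.5, 3 and 2.25 in those bins. With touching partners counted as 1, 5 bins still reached 12 in all 4 lists. These were a bin within Stum (chr1:180255001-180260000), the bin near Ifnar2 (chr16:91150001-91155000), the start of Atp6v0c (chr17:24385001-24390000), which encodes a subunit of the proton pump of lysosomes, a bin near Haao (chr17:84280001-84285000) and the bin near Tomm20 (chr8:127575001-127580000). The bin within Stum had 15, 18, 21 and 15 such stretches and the bin near Tomm20 had 14, 14, 16 and 17.

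Most hubs were not promoters. A canonical start of a protein-coding gene lay in 278 hubs (30.1%, 95% Wilson interval 27.2% to 33.1%), 377 (40.8%, 37.7% to 44.0%) lay within a gene without its start and 269 (29.1%, 26.3% to 32.1%) lay between genes. Of the intragenic hubs, 186 overlapped an exon of a canonical transcript and 191 did not. Promoters were more frequent among hubs than among bins of 8 to 11 loops (25.8%), bins looped in all 4 lists (16.8%) or all looped bins (12.4%), and intragenic bins were less frequent (40.8% against 50.6%, 62.7% and 64.6%). The start of a long non-coding RNA, without a protein-coding start, lay in 16.9% of hubs, 11.6% of bins of 8 to 11 loops and 7.73% of all looped bins. Neighboring bins share fragments, and the intervals cover counting error only.

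**Figure D2:**
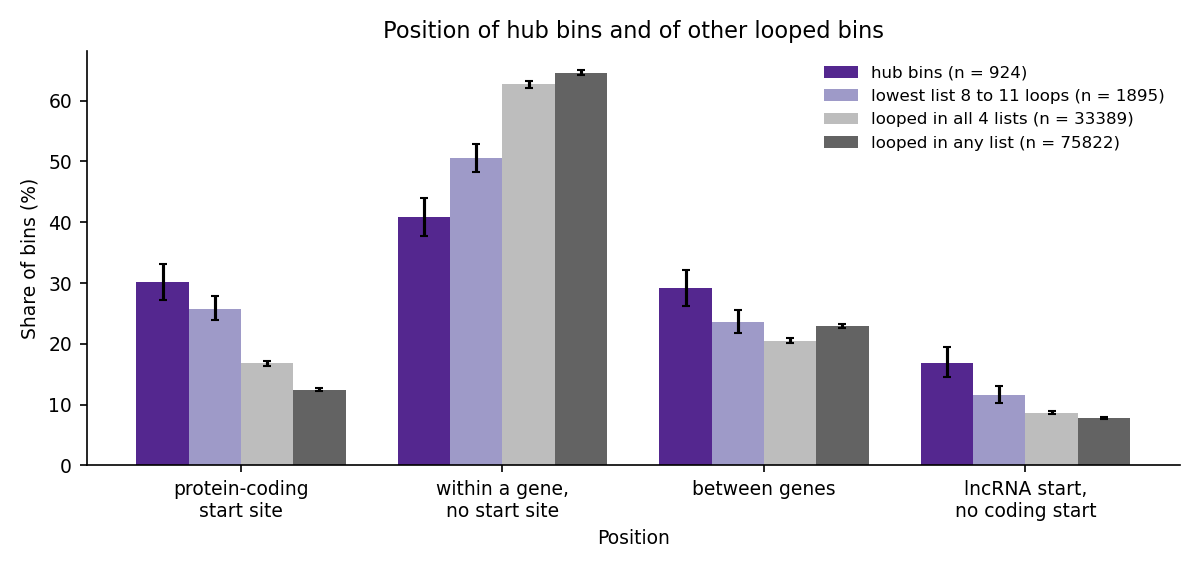
Share of bins (y axis, percent) that hold a protein-coding start, lie within a gene, lie between genes or hold a lncRNA start without a coding start (x axis), for hubs and 3 other sets of bins; error bars show 95% Wilson intervals. The promoter share falls from 30.1% in hubs to 12.4% over all looped bins.

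The 646 hubs without a start were looped to the nearest start in some cases and to other starts in others. Of 478 that lay far enough from the nearest start for a loop to be called, 184 (38.5%) were looped to it in all 4 lists, 211 (44.1%) were looped only to another start in all 4 lists and 83 (17.4%) to no start in all 4. Hubs of the latter groups may have a loop to the nearest start in some of the lists. The bins lay at a varied distance from genes, with 243 within 10 kb of a start and 108 more than 50 kb away. The hub with the highest lowest list lay 92.7 kb from Tomm20, which encodes an import receptor of mitochondria, and its only protein-coding partner start in any list was that of Irf2bp2, a co-repressor that partners IRF2, at 255 kb. That loop had 32, 30, 43 and 40 contacts.

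Among intergenic hubs, the bin near Tomm20 held 40, 54, 62 and 46 loops. The bin near Zfp36l2 (chr17:84425001-84430000) held 38, 38, 67 and 38. It was looped in all 4 lists to the start of Zfp36l2, an RNA-binding protein that promotes decay of AU-rich mRNAs, at 70 kb with 60, 49, 93 and 61 contacts. The bin near Ifnar2 held 37, 54, 68 and 39 loops. It was looped in all 4 lists to Ifnar1, a chain of the type I interferon receptor, at 130 kb with 16, 24, 33 and 31 contacts and to Ifngr2, a chain of the interferon-gamma receptor, at 190 kb with 19, 30, 26 and 26. Its loop to Ifnar2 itself, 15 kb away, was listed in p42 UT alone. In these 3 bins the p42 UT list was highest, and the lowest list was p30 UT for the bins near Tomm20 and Ifnar2. Over all 924 hubs as deposited, ties included, p42 UT was highest in 814 and p30 UT lowest in 500.

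The bin near Xcr1 (chr9:123725001-123730000) held 36, 40, 42 and 33 loops and stood out by its coverage, which was 16.7, 17.9, 16.9 and 13.4 times the mean of peak bins. Its partners in all 4 lists included the starts of chemokine receptor genes, Ccr1 at 40 kb (54, 55, 169 and 84 contacts), Ccr1l1 at 50 kb and Ccr2 at 175 kb, and that of Ppp2r3d at 470 kb. These receptors draw monocytes and other leukocytes to sites of inflammation. The next bin, chr9:123730001-123735000, held 31, 41, 47 and 38 loops. In both bins at least 80% of the loops ran toward higher coordinates in all 4 lists.

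Among promoter hubs, the bin with the starts of Cnn2, an actin-binding calponin, and Tmem259 had the highest lowest list, with 40, 42, 44 and 35 loops. It was looped to 20 other bins with a start in any list and to 11 in all 4, among them Stk11, a kinase upstream of AMPK, at 130 kb and Gpx4, which detoxifies lipid peroxides, at 65 kb. Dusp1, a phosphatase that switches off MAP kinases, held 36, 38, 40 and 34 loops. At both bins the lists lay close together, with the highest less than 1.5 times the lowest. Irf2bp2 held 32, 49, 56 and 46 loops, with p30 UT below the other lists. Def6, a guanine nucleotide exchange factor of lymphocytes, held 32, 35, 38 and 33, and Zfp36l2 held 37, 27, 43 and 31. The Atp6v0c start held 32, 41, 44 and 29. In the MHC class III region the bin with the starts of Clic1 and Msh5 held 30, 39, 43 and 28 and that of Lsm2, a subunit of an mRNA decay complex, held 29, 29, 46 and 28. The Anks1 and Taf11 starts held 27, 44, 48 and 37.

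Among intragenic hubs, a bin in Anks1 (chr17:28230001-28235000), 64.6 kb from the nearest start, held 29, 30, 35 and 29 loops. A bin that overlaps an exon of Dusp1 (chr17:26720001-26725000) held 27, 34, 37 and 28. A bin in Cpne5, a copine that binds membranes with calcium, held 26, 35, 34 and 26, and the next bin held 25, 37, 37 and 27. Both were looped in all 4 lists to Cdkn1a, at 75 and 80 kb, with 47, 62, 60 and 55 and with 51, 62, 66 and 42 contacts. The bin in Stum (chr1:180255001-180260000) held 30, 36, 41 and 25. In all 5 the lowest list was p30 UT, p42 LPS or both. Over all 924 hubs as deposited, ties included, p30 UT was lowest in 500, p42 LPS in 474, p30 LPS in 142 and p42 UT in 11.

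Of the gene lists examined, chosen with earlier results of these data known, that of signal-response genes had the largest share of hub genes. Of 53 immediate early and signaling genes, 9 (17%) had their start in a hub, against 318 of 21751 protein-coding genes (1.46%). Besides Dusp1 and Zfp36l2 these were Cdkn1a, the cell cycle inhibitor p21 (27, 28, 29 and 22 loops), Pim1, a survival kinase (20, 26, 22 and 20), Bcl2l1, the anti-apoptotic BCL-XL (27, 27, 28 and 25), Spred1, an inhibitor of RAS signaling (12, 21, 25 and 16), Dusp2 (15, 21, 21 and 17), Dusp6 (14, 14, 21 and 15) and Ier3, which shares its bin with Flot1 (26, 27, 33 and 24). Of these genes, Spred1 had the widest range of loops relative to its lowest list. Such genes are also looped more often than most, with 73.6% of the list looped in all 4 lists against 29.1% of all protein-coding genes. Among genes looped in all 4 lists, hubs made up 23.1% (9 of 39) of this list and 5.02% over all protein-coding genes. That share lies close to the 21.7% of the inflammatory list and the 20% of the AP-1 list given below.

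Inflammatory mediators gave 5 hub genes of 42 (11.9%). The cytokine genes Tnf and Lta share a bin with 13, 14, 15 and 12 loops, and Ltb held 14, 16, 22 and 13. Loops of the Lta and Tnf bin were short, with a median reach of 25 kb, and joined it in all 4 lists to Lst1 and Aif1, among others. The chemokine genes Ccl9 (16, 23, 30 and 23) and Ccl3 (12, 18, 24 and 17) lay on chromosome 11 and were looped to each other at 75 kb in all 4 lists, with 18, 13, 30 and 20 contacts. For both genes p30 UT was the lowest list, as it was, ties included, in 500 of all 924 hubs as deposited. NF-kB genes and their inhibitors gave 0 hub genes of 16. Of genes looped in all 4 lists, hubs made up 5.02% over all protein-coding genes, 21.7% (5 of 23) in the inflammatory list and 0 of 11 in the NF-kB list, a number too small to set it apart.

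Transcription factors of blood gave 4 hub genes of 54. Lyl1 (13, 17, 22 and 14 loops) and Lmo2 (13, 12, 18 and 15) act in stem and progenitor cells, Nfe2 (16, 16, 21 and 20) in megakaryocytes and erythroid cells, and Cebpb (13, 21, 33 and 21) in myeloid cells. The AP-1 family gave 3 of 22, namely Fos (13, 12, 19 and 14), Mafg (12, 16, 27 and 14) and Bach1 (13, 16, 21 and 18). Granulocyte genes gave 2 of 29, the protease gene Prtn3 (17, 18, 27 and 15) and Ncf1, a subunit of the NADPH oxidase (13, 16, 22 and 16). Of 35 progenitor receptors and surface proteins only Spn, the sialomucin CD43, was a hub (13, 12, 18 and 15). Genes of erythroid, megakaryocyte and mast cells gave 0 of 30, those of other lineages 0 of 29 and cytosolic ribosomal protein genes 3 of 86, among them Rpl7l1 and Rps10. Among genes looped in all 4 lists the share of hubs was 11.4% for the transcription factors, 20% for AP-1, 18.2% for granulocyte genes, 4.17% for progenitor receptors and 5.26% for ribosomal genes, so the last 2 lie near the 5.02% over all genes. The counts behind these shares are 5 or fewer.

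Hubs were bins of high coverage. Coverage, the number of reads of a bin, was 2.66, 2.88, 2.83 and 2.62 times the mean of peak bins in the median hub. It was 2.02 to 2.13 in bins of 8 to 11 loops and 1.22 to 1.24 in bins looped in all 4 lists. An H3K27ac peak was flagged in all 4 lists in 922 hubs. When peak bins looped in all 4 lists were ranked by coverage into 10 equal groups, the share of hubs rose from 0% in the lowest to 4.44% in the ninth and 16.9% (528 of 3133 bins) in the highest. Within the highest group, hubs had a median of 28 peak bins within 100 kb, other bins had 19, and bins with 3 or fewer loops in some list had 12. Median relative coverage in these sets fell in the same order, at 3.64, 3.07 and 2.94. The 394 hubs outside the highest group had a median coverage of 1.78 and also 28 peak bins within 100 kb. The part of coverage in the number of loops called was not tested.

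**Figure D3:**
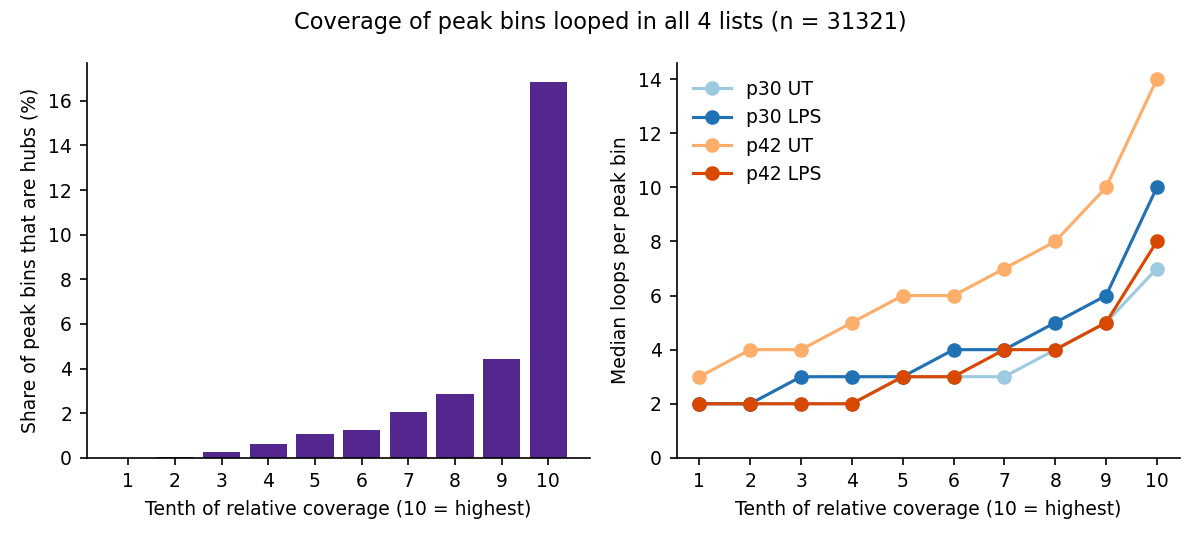
Share of hubs (left, y axis, percent) and median loops per bin in each list (right) among peak bins looped in all 4 lists, ranked by relative coverage into 10 equal groups (x axis, 10 highest). The share of hubs rises from 0% in the lowest group to 16.9% in the highest.

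Loops of hubs also spanned more distance than loops in general. Their median length was 65, 65, 70 and 65 kb, against 45, 35, 40 and 40 kb over all loops, with a loop between hubs counted at both ends. Loops over 100 kb made up 27.2% to 30.6% of hub loops and 17.6% to 20.8% of all loops. The ratio of contacts to the count expected by the caller had a median of 5.29 to 5.61 for hub loops and 4.24 to 4.34 for all loops. In 218 hubs at least 80% of the loops ran to lower coordinates in all 4 lists and in 220 to higher ones, while 486 hubs met neither condition. A hub was looped, over all lists together, to between 14 and 75 bins and to a median of 3 bins with a protein-coding start. In 50 hubs this number was 0.

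Of the 5 hubs of longest reach, 3 lay in the Irf2bp2 and Zfp36l2 networks and 2 on chromosome 1. Reach is the median loop length of a bin in a list, taken as the median over the 4 lists. A bin near Tarbp1 (chr8:127220001-127225000) had a reach of 340 kb and held 19, 31, 29 and 27 loops. A bin within Thada (chr17:84690001-84695000) had a reach of 299 kb and was looped to Zfp36l2 at 195 kb in all 4 lists with 13, 12, 37 and 18 contacts. A second bin near Tarbp1 (chr8:127225001-127230000) reached 318 kb. On chromosome 1, a bin in Stum (chr1:180260001-180265000) reached 224 kb and was looped in all 4 lists to Parp1, a sensor of DNA breaks, at 135 kb, and the bin with the Dtl and Ints7 starts reached 219 kb and was looped to Nek2, a kinase of the centrosome, at 245 kb with 37, 45, 42 and 38 contacts. By class, the median reach was 71.2 kb for intergenic, 62.5 kb for promoter and 56.2 kb for intragenic hubs.

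Of 24306 hub loops, 8279 (34.1%) stood in all 4 lists with both bins identical, and 28.8% stood in 1 list alone. The share in all 4 lists was 29.3% for bins of 8 to 11 loops and 14.5% over all loops. The rule asks for many loops in every list and so bears on this share. Contacts at the loops in all 4 lists moved as they did elsewhere in the lists. Untreated, p42 held 58.3% of the contacts of p30 and p42 together at the 8279 hub loops, 57.9% at loops of bins with 8 to 11 loops and 57.5% at all 31032 such loops, beside 51.4% of all modelled contacts. After LPS the shares were 48.4%, 48.5% and 48.6%, beside 52.2% of modelled contacts.

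Hubs were unevenly spread over chromosomes. Chromosome 17 held 217 hubs (23.5%), while it held 8.26% of the bins looped in all 4 lists. Chromosome 1 held 115 and chromosome 11 held 94, while chromosome 18 held 5, chromosome 13 held 2 and chromosomes X and Y held 0. Median relative coverage of bins looped in all 4 lists was also high on chromosome 17, at 1.47 to 1.55 in the 4 lists, and on chromosome 1, at 1.42 to 1.54, against 0.83 to 1.36 on the other chromosomes except Y, where 4 bins looped in all 4 lists had 0.026 to 0.049. Whether copy number in this line has a part in this was not tested. Without chromosome 17, 707 hubs in 514 regions were left, with a start in 30.6% of them.

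**Figure D4:**
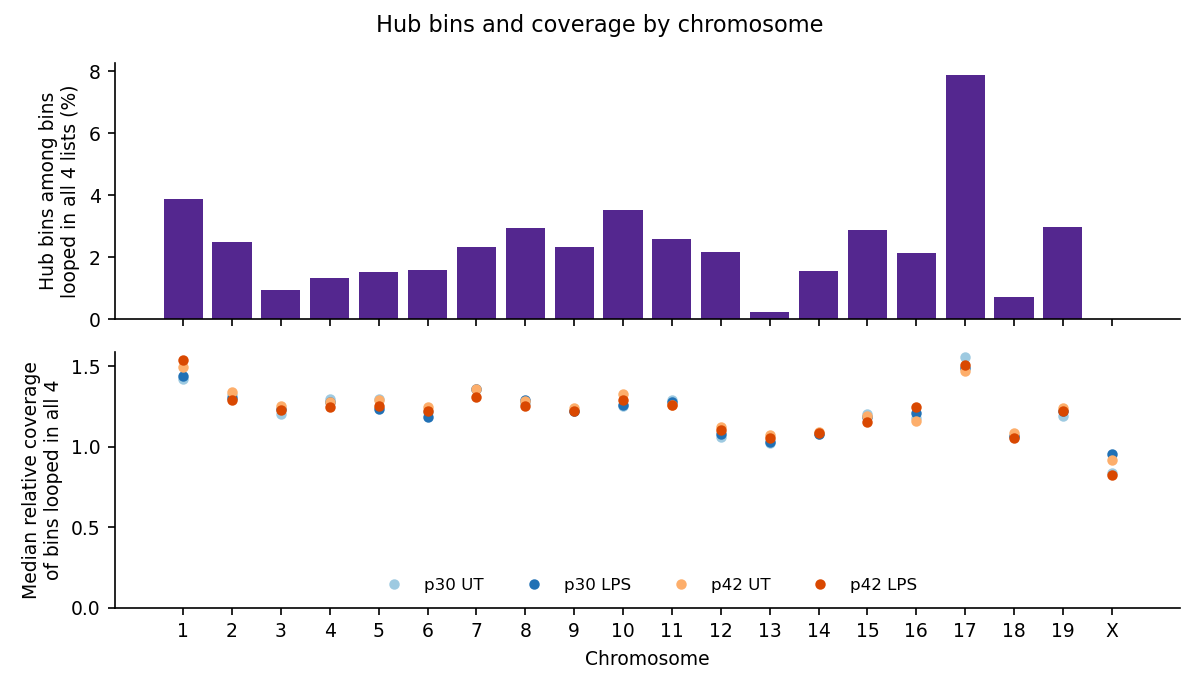
By chromosome (x axis), hub bins as a share of the bins looped in all 4 lists (top, percent) and the median relative coverage of those bins in each list (bottom). Chromosome 17 stands highest with 7.87%, and its median coverage, 1.47 to 1.55, is also among the highest.

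Partners of hubs were hubs more often than partners of other bins. In p30 UT the partner bin was a hub for 28.6% of hub loop ends. This share was 16.9% for bins of 8 to 11 loops and 9.69% over all looped bins. In p42 UT the shares were 23.2%, 13.9% and 7.2%, and both LPS lists had the same order. Hubs were selected for many loops in every list, and the part of this choice in the shares was not tested. In the 4 lists, 16.7%, 15.1%, 13.1% and 16.1% of the loops with an end in a hub had both ends in hubs, and 1770 of 2873 such loops (61.6%, 59.8% to 63.4%) stood in all 4 lists. These 1770 loops joined 722 hubs into 129 networks, of which 45 held 2 hubs and 15 held 10 or more. Of the 1770, 154 joined promoter hubs, 566 joined a promoter hub to another hub and 1050 joined hubs without a start. In 29 networks there was no promoter hub.

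The network with the most hubs, 41 with 20 promoter hubs, lay on chromosome 17 (chr17:35070001-35465000) in the class III region of the MHC, which holds Tnf, Lta, Ltb, Aif1, Clic1, Bag6 and Ddx39b. Its hubs held 749, 882, 1060 and 742 loops in sum. A network of 26 hubs joined Cdkn1a and Pim1, and one of 25 hubs on chromosome 10 joined Prtn3 to Cnn2, Gpx4 and Stk11. Networks on chromosome 9 (13 hubs) and chromosome 11 (11 hubs) held the chemokine receptor gene Ccr2 and the chemokine genes Ccl9 and Ccl3. A network of 18 hubs lay around Myh9, non-muscle myosin heavy chain, and one of 22 around Dusp1, Ergic1 and Atp6v0e.

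Networks with 1 promoter hub included those of Zfp36l2, Irf2bp2, Myh9 and Anks1. Around Zfp36l2, 31 hubs over 490 kb (chr17:84205001-84695000) had the Zfp36l2 bin as their only promoter hub. They held 835, 746, 1229 and 580 loops as deposited and 824, 667, 825 and 580 in lists of equal size. Around Irf2bp2, 15 hubs over 430 kb (chr8:127220001-127650000) had the Irf2bp2 bin as their only promoter hub. They held 296, 484, 617 and 434 loops as deposited and 291, 421, 413 and 434 in lists of equal size. At equal size the Zfp36l2 network was thus lower in both LPS lists than in both untreated lists, while the Irf2bp2 network was lower in p30 UT than in the other 3. Relative coverage moved alongside, with medians over the hubs of 3.97, 2.86, 3.58 and 2.54 in the Zfp36l2 network and of 2.75, 3.52, 3.29 and 3.27 in the Irf2bp2 network. In the chemokine networks p30 UT was also lowest, with means per hub of 17.2, 22.9, 22 and 23.6 for that of Ccr2 and of 14.5, 18.7, 19.9 and 19.5 for that of Ccl9 and Ccl3.

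**Figure D5:**
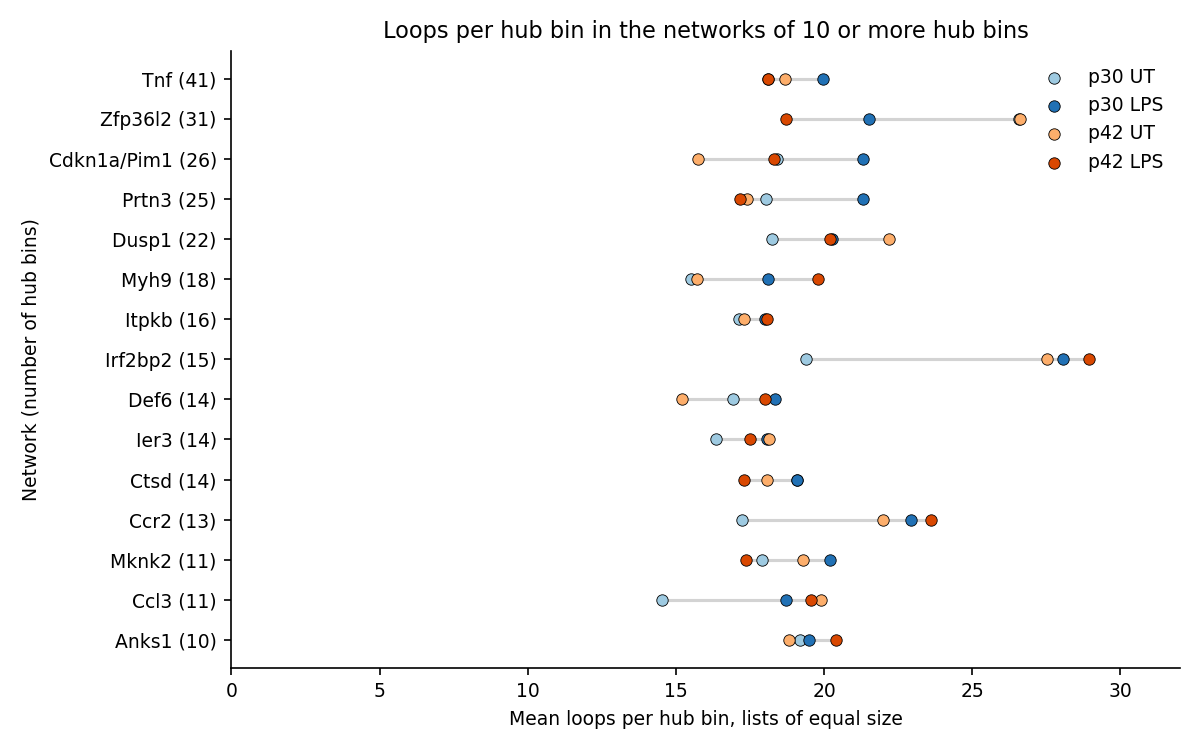
Mean loops per hub bin in lists of equal size (x axis) for the 15 networks of 10 or more hubs (y axis, named by their genes), with 1 point per list. In the Irf2bp2 network p30 UT, at 19.4, lies below the other lists, at 27.5 to 28.9, and in the Zfp36l2 network both LPS lists, at 21.5 and 18.7, lie below both untreated lists, at 26.6.

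As deposited, the number of loops per hub followed the size of the lists. In p42 UT against p30 UT, 877 hubs held more loops and 27 fewer, with a median log2 ratio of 0.53. Of 44910 bins looped in both lists, 32466 held more and 3768 fewer, with a median of 0.81. In p42 LPS against p42 UT, 18 hubs held more and 882 fewer, with a median of -0.50. Of 44225 bins looped in both lists, 2477 held more and 33718 fewer, with a median of -1. The median was 0.21 for p30 LPS against p30 UT and -0.19 for p42 LPS against p30 LPS, beside 0 in both over all bins looped in both lists. Most looped bins hold few loops, so nothing is read from these differences between hubs and other bins. In lists of equal size the medians were 0.070 for p42 UT against p30 UT, 0 for p42 LPS against p42 UT, 0.093 for p30 LPS against p30 UT and -0.076 for p42 LPS against p30 LPS. Median log2 ratios of relative coverage were 0.075, -0.13, 0.11 and -0.12 for the same pairs, which is the sign of the loops as deposited in each comparison. Bins of 8 to 11 loops had 0.054, -0.086, 0.045 and -0.077, of the same signs. All bins looped in both lists had -0.053, 0.019, -0.033 and 0.0086, of the opposite signs. Coverage was not held fixed in these comparisons and its part was not tested.

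At equal size few hubs passed a change of 1.5-fold. In p42 UT against p30 UT, 61 hubs (6.60%) were at least 1.5-fold higher and 43 (4.65%) lower, beside 26.1% and 23.9% of all bins looped in both lists. In p42 LPS against p30 LPS, 39 (4.22%) were higher and 52 (5.63%) lower, beside 24.2% and 25.2%. In p30 LPS against p30 UT, 64 (6.93%) were higher and 30 (3.25%) lower, beside 24.5% and 23.9%. In p42 LPS against p42 UT, 39 (4.22%) were higher and 39 lower, beside 21.8% and 24%. The rule sets a floor of loops in every list and most looped bins hold few loops, so nothing is read from the smaller shares in hubs. Over all 4 lists, the highest list was less than 1.5 times the lowest in 636 hubs (68.8%) and more than 2 times in 27 (2.92%).

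The hubs with the largest and smallest ratios at equal size are given for each comparison. Of the 5 with the largest ratio of p42 UT to p30 UT at equal size, 3 lay in the Irf2bp2 network; the bin chr8:127560001-127565000 held 14, 32, 30 and 37 loops. The others were next to Ccr1 and within Emilin2 (chr17:71560001-71565000), an extracellular matrix protein gene, where the lists held 12, 27, 23 and 38. Emilin2 and the same Irf2bp2 bin were also among the 5 with the largest ratio of p30 LPS to p30 UT, beside a bin near Ly6e (13, 25, 9 and 12) and a bin in Smad3, a mediator of TGF-beta signals (11, 23, 13 and 15). The Ly6e bin was high in p30 LPS alone, and its relative coverage was 3.03, 4.89, 3.18 and 3.46. At the Emilin2 bin p42 held 70.9% (67.0% to 74.5%) of the contacts of p30 and p42 at shared loops untreated and 59.9% (55.5% to 64.1%) after LPS.

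In the other direction, the 5 hubs with the smallest ratio of p42 UT to p30 UT were lowest in p42 UT at equal size. The choice by this ratio favors that order. At equal size the p42 UT list was also cut at the smallest q-value, and as deposited each of these hubs held 12 or more loops in it. The part of that cut was not tested. A bin in Fgd2, an exchange factor for CDC42, held 19, 19, 8 and 14 loops, a bin near Itpkb, an inositol phosphate kinase, held 16, 21, 7 and 18, and the Rnps1 start held 13, 11, 6 and 14. The Rab17 start held 15, 13, 7 and 12, and a bin in Arap1 held 17, 13, 8 and 12. The 5 with the smallest ratio of p30 LPS to p30 UT were the starts of Armc12 (21, 11, 23 and 17) and Igsf8 (24, 13, 16 and 13), a bin near Acot11 (22, 12, 12 and 18), a bin near Haao in the Zfp36l2 network (24, 14, 27 and 15) and a bin in Trerf1 (17, 10, 22 and 18). Relative coverage of the Igsf8 start was 2.34, 1.67, 1.90 and 1.49, so that it was also highest in p30 UT.

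After LPS, 3 of the 5 hubs with the largest ratio of p42 to p30 lay 9.17 to 24.2 kb from Cebpb. At equal size the bin chr2:167540001-167545000 held 14, 11, 22 and 20 loops, chr2:167550001-167555000 held 13, 11, 21 and 21, and chr2:167555001-167560000 held 12, 11, 21 and 24. At these 3 bins both p42 lists were above both p30 lists. Their order after LPS follows from the choice, and the bins lie close together and are not independent. Over all 924 hubs at equal size, p42 was higher both untreated and after LPS in 200 (21.6%) and p30 in 198 (21.4%). The Cebpb start itself held 13, 17, 20 and 21 at equal size, with the same order of isoforms, and its relative coverage was 1.15, 1.16, 1.59 and 1.75. Its share of contacts at loops in all 4 lists was 65.3% for p42 untreated and 59.3% after LPS. It had no loop to another protein-coding start in any list. The 5 hubs with the smallest ratio of p42 LPS to p30 LPS were the Ly6e bin and bins at Lrrc25 (18, 27, 15 and 14), Pip5k1c (24, 22, 18 and 12), Neurl3 (17, 23, 13 and 13) and Ly6g5b (23, 23, 21 and 13).

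With LPS in p42 cells, the 5 hubs with the smallest ratio of p42 LPS to p42 UT at equal size included 3 of the Zfp36l2 network. The bin chr17:84410001-84415000 held 19, 17, 25 and 12 loops, chr17:84265001-84270000 held 28, 24, 33 and 17, and chr17:84295001-84300000 held 31, 28, 36 and 19. In each of them p42 UT was highest and p42 LPS lowest, an order that the choice by this ratio favors. The others were a bin near Smim41 (23, 20, 34 and 17) and the start of Rabif (15, 16, 23 and 12). The 5 with the largest ratio held 6 to 11 loops in p42 UT at equal size, as at the Rnps1 start (13, 11, 6 and 14) or near Pim1 (12, 11, 7 and 14).

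With LPS, 229 hubs (24.8%) were higher in p30 and lower in p42 at equal size and 100 (10.8%) were the reverse, beside 15.5% and 10.3% of 29394 bins looped in all 4 lists at equal size. These counts include differences of a single loop. Past 1.5-fold, 4 hubs (0.433%) were at least 1.5-fold higher with LPS in p30 and at least 1.5-fold lower with LPS in p42, and 1 showed the reverse. A change of that size in the same direction was found in 5 hubs that rose in both, among them Emilin2, and in 7 that fell in both, of which 3 bins lay in the Zfp36l2 network. Over the 29394 bins, 6.14% and 5.33% changed past 1.5-fold in opposite directions and 6.75% and 6.98% in the same direction, and nothing is read from the smaller shares in hubs, for the reason given above.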

How the data were processed

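H3K27ac HiChIP had been run on 8 HPC-7 libraries, 2 per group. Per the study's methods, reads were mapped with BWA-MEM, duplicates removed with pairtools and loops called with FitHiChIP; the submitters' processing notes name BWA 0.7.17 and mm39. How replicates were pooled is not given in the sources used here. The authors deposited 1 list per group, of loops between 5 kb bins at a q-value under 0.01. The authors' contact count, in whole ligation products per bin pair, is unnormalized. The deposited expected count is the caller's estimate from distance and coverage. The contact probability, deposited as a fraction, is that estimate over all modelled contacts. The p-value and q-value are those of the authors' caller. Because the caller corrects for coverage and lists significant pairs alone, contacts of unlisted pairs are unknown.

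Loops were counted per bin at either end with Python 3.11.15, pandas 2.3.3, numpy 2.4.6, SciPy 1.17.1 and networkx 3.6.1, and figures were drawn with matplotlib 3.10.9. A check on simulated lists found 60 of 60 planted hubs, each planted with more loops than the minimum, so it bears on the counting alone. Genes and start sites came from GENCODE M39, and sequences from the GRCm39 genome, whose 21 chromosome names matched the lists with 0 bins beyond chromosome ends. Wilson 95% intervals cover counting error only, since PCR products are not independent molecules. Networks join hubs by loops found in all 4 lists. Hubs named in the text were drawn from the 20 hubs with the highest lowest list, the 5 highest intragenic and intergenic hubs, hubs at starts of listed genes, the 5 hubs with the largest and smallest ratio per comparison at equal list size, and the 5 of longest reach. Members, gene lists, motifs and comparisons were chosen with earlier results of these data known. With 1 list per group no test was run. Alternatives covered the loop minimum, q-value, contacts, distance, peaks, partners, promoter window and list size. Some results are not reported here.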

Additional observations from a re-analysis of the deposited data

Results flagged for a closer look

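The number of loops per hub changed in opposite directions in lists that share a contrast. With LPS, the median log2 ratio over the 924 hubs as deposited was 0.21 in p30 and -0.50 in p42. For p42 against p30 it was 0.53 untreated and -0.19 with LPS. Over all bins looped in both lists the medians were 0 and -1 for LPS in p30 and p42. For p42 against p30 they were 0.81 untreated and 0 with LPS. With 1 list per group these differences were not tested. The lists themselves moved alike, from 80489 to 94609 loops with LPS in p30 and from 158233 to 78591 in p42. In lists of equal size the medians were 0.093 and 0 for LPS in p30 and p42, and 0.070 and -0.076 for p42 against p30 untreated and with LPS.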

How the results depend on the processing

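No paired analysis was possible because the 4 lists pool their replicates and carry no replicate numbers. No median changed sign under any alternative, and the number of hubs depended on the rule. A minimum of 10 loops gave 1597 bins in 976 regions, 15 loops gave 404 in 296, and a q-value under 0.001 gave 389 in 277. Counting touching partners as 1 left 5 bins in 5 regions, of which 20% held a start, with median log2 ratios of 0.19 (p42 UT to p30 UT), -0.26 (p42 LPS to p30 LPS), 0.26 (p30 LPS to p30 UT) and -0.30 (p42 LPS to p42 UT). With hubs selected again in lists of equal size these were 0.087, -0.096, 0.11 and -0.074. From summed contacts scaled by modelled contacts they were 0.68, -0.36, 0.48 and -0.57, and from contacts at loops in all 4 lists 0.37 (p42 UT to p30 UT), 0.32 (p30 LPS to p30 UT) and -0.27 (p42 LPS to p42 UT). The ratio of p42 LPS to p42 UT was -0.54 at 10 loops, -0.47 at 15 loops, -0.47 at the stricter q-value and -0.47 for loops between peak bins, and that of p30 LPS to p30 UT was 0.23 at 15 loops. The share with a start rose to 48.3% when neighboring bins counted and to 37.3% with 1 bin per region; the latter and the setting without chromosome 17 were chosen after seeing the data. Asking for 12 loops in only 3 of the lists gave 929 to 1299 bins, 621 to 837 regions, a start in 28.0% to 30.7%, and medians of 0.47 to 0.63, -0.31 to -0.14, 0.17 to 0.32 and -0.62 to -0.49, in the order above. Hubs rest on listed loops, so a bin with contacts below the caller's threshold counts as having fewer.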
